A study of Mus musculus with 16 samples.

Results

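Fetal mouse cortex whose mother and father had both been exposed to ethanol was compared with fetal cortex whose father alone had been exposed. The libraries were chosen by their labels: 4 dual libraries (2 male and 2 female) and 4 paternal libraries (2 male and 2 female), 8 of the 16 in the series. Total RNA of the cortex was taken at gestational day 16 and sequenced after a total RNA library preparation. Both groups have an ethanol-exposed father, so the comparison asks what differs when maternal exposure is added to paternal exposure. The other 8 libraries are 4 with the mother alone exposed (maternal) and 4 with neither parent exposed (control), again 2 of each sex. The labels give no dose, timing of exposure, strain or litter. They do not say whether the 2 libraries of a group came from separate fetuses or litters, so the p-values measure the spread between libraries, which may be technical.

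The day of sampling lies in the period when radial glia and intermediate progenitors of the mouse cortex make upper-layer neurons, while blood vessels grow through the wall and macrophage precursors settle in it as microglia. Fetal brain tissue also carries circulating red cells, which are filled with globin mRNA, and often a share of meninges. Total RNA libraries hold unspliced and nuclear RNA beside mRNA, so long non-coding RNAs that stay in the nucleus and transcripts inside introns are counted with the coding genes.

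Summed deposited counts ran from 15646083 to 28491639 in dual libraries and from 15336566 to 35218456 in paternal libraries, with every male library below every female one. Sex labels matched Xist and 4 Y-linked genes: male libraries held at most 26 Xist counts and female libraries at most 7 counts on the Y-linked genes. TEC and sense-intronic genes (short transcribed regions that the annotation lists without an mRNA, mostly inside introns) took 0.511% and 0.365% of the counts in male dual and 0.872% and 0.860% in female dual libraries, against 0.280% and 0.381% in male paternal and 0.331% and 0.352% in female paternal libraries. Control libraries held 0.429% and 0.534% in males and 0.325% and 0.349% in females. The 2 female dual libraries stood apart on this share, and their part in the results was not tested beyond the fits named here. IDs without a gene name took 7.16% and 17.8% of counts in male dual and 1.73% and 1.84% in female dual libraries, against 14.2% and 5.49% in male paternal and 2.43% and 2.27% in female paternal libraries. Most of the male share lay on a single ID, with 5.49% and 16.2% in male dual and 12.3% and 3.58% in male paternal libraries. In the female libraries of both groups that ID took at most 0.0828%.

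Across both sexes, dual libraries differed from paternal libraries in 1898 of 21543 genes tested (8.81%; edgeR quasi-likelihood test, Benjamini-Hochberg adjusted p under 0.05), of which 1432 (6.65%) were higher and 466 (2.16%) lower. The 2 directions held different kinds of genes. Of the rises 782 were TEC and sense-intronic genes and 231 were protein-coding, while 458 of the falls were protein-coding. Genes that fell included globins, macrophage receptors, vessel genes, ribosomal proteins and IGF-binding proteins, and genes that rose included nuclear long RNAs, antisense RNAs, clustered protocadherins and a few synaptic genes. Within each sex, dual and paternal libraries did not overlap for 1066 of the 1432 rises and 401 of the 466 falls, while over all genes tested 10.9% lay higher and 9.56% lower without overlap within each sex. Without TMM scaling the calls were 1277 higher and 187 lower, and with protein-coding genes tested alone 157 higher and 51 lower. Leaving out 1 library gave 764 calls (male dual 1), 847 (male paternal 1) and 947 (female paternal 1). It gave 1043 (female dual 2), 1239 (female paternal 2), 2855 (female control 1) and 2874 (female control 2), and of these libraries the 2 controls enter the shared spread and not the contrast. With the TEC and sense-intronic share of each library as a covariate 0 genes passed in edgeR (733 at an unadjusted p under 0.05).

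In dual libraries 3 adult globin genes fell. Values of single libraries are given in the order male 1, male 2, female 1, female 2, as CPM scaled by TMM, and libraries left out of a fit are named by sex, exposure and number. Hbb-bs, an adult beta-globin gene on chromosome 7, had 319, 308, 169 and 181 CPM in dual libraries, against 302, 735, 529.8 and 436 CPM in paternal libraries. Both female dual libraries lay below both female paternal ones, whereas the male groups overlapped, because male paternal 1 lay below both male dual libraries. Its log2 fold change was -1.10 ± 0.17, adjusted p = 0.000889 (SE from the fit; 4 libraries a group), and its levels were 449.5 ± 129 CPM in maternal and 367 ± 59.8 CPM in control libraries (SD, n = 4 each). Hbb-bt, the neighbouring adult beta-globin gene, had 52.8, 53.3, 54.5 and 50.6 CPM in dual libraries, against 52.0, 140.4, 98.5 and 80.1 CPM in paternal libraries, a log2 fold change of -0.82 ± 0.19, adjusted p = 0.0129. The call was lost without male dual 1, female paternal 1 or female dual 2 (highest adjusted p 0.0618). Hba-a1, an adult alpha-globin gene on chromosome 11, fell by 0.75 (adjusted p = 0.021), to between 84.8 and 101.2 CPM in dual libraries, against 83.5, 216, 173 and 141 CPM in paternal libraries. Male paternal 2 had the highest level of the 8, and without it the log2 fold change was -0.32. The call of Hba-a1 was lost without male paternal 2, male dual 1, male dual 2, female paternal 1, female dual 1 or female dual 2 (highest adjusted p 0.0873). Of 11 erythroid genes tested 3 fell (27.3%, against 2.16% of all genes tested) and 0 rose, with a median log2 fold change of -0.75, against -0.00 over all genes tested. In other fits 1 of them fell without male dual 1, female paternal 1 or female dual 2 and 5 without male paternal 1. The median was -0.32 without male paternal 2, -0.47 without female paternal 1 and -0.50 without male dual 2. Without male paternal 2 the log2 fold change was -0.71 for Hbb-bs and -0.37 for Hbb-bt, and both passed. Hba-a1 and Hba-a2, and Hbb-bs and Hbb-bt, are near-identical copies, so reads could be split between them in a way the sources used here do not state.

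The start regions of the 3 globin genes that fell are shown because all of them hold CCAAT and CACCC, motifs known from globin promoters.
Each is the 250 bases before the RefSeq start site on GRCm38.p6, 5′ to 3′ on the gene's strand, and is not from the build of the count files.
Capitals mark CCAAT (read as ATTGG where it lies on the other strand), the CACCC motif, the GATA-type motifs AGATAA (as in Hbb-bs) and TGATAA (as in Hba-a1), and the TATA-type motif TATAAA (as in Hbb-bt), each searched on both strands, and in Hbb-bt a reversed and a forward CCAAT stand end to end.
Hbb-bs lies at chr7:103827929-103828178 on the minus strand, Hbb-bt at chr7:103813924-103814173 on the minus strand and Hba-a1 at chr11:32283422-32283671 on the plus strand.
Hbb-bs promoter: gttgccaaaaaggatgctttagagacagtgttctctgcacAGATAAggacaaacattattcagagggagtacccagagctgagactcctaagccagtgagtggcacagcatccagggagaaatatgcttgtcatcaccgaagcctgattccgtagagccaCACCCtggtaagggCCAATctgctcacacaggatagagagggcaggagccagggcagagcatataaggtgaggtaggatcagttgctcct
Hbb-bt promoter: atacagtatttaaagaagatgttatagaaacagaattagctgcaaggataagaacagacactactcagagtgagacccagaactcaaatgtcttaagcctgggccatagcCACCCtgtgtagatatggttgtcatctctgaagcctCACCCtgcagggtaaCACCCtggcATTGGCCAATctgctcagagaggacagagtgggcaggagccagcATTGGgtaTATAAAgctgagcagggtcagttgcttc
Hba-a1 promoter: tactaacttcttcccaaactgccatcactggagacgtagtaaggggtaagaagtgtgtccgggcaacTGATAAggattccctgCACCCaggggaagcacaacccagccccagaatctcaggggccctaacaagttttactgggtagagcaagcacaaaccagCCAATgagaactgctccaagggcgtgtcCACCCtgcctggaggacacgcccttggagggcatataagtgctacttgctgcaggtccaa
The forward CCAAT began 76 bases before the start of Hbb-bs, 75 before that of Hbb-bt and 88 before that of Hba-a1, and a CACCC stood 90, 89 and 60 bases before them in the same order of genes.
Of 32851 RefSeq windows of this length 33.8% held CCAAT and 52% the CACCC motif.
The GATA-type motif of Hbb-bs was in 9.99% of them, that of Hba-a1 in 7.94%, and the TATA-type motif of Hbb-bt in 12.4%.

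Several macrophage genes fell in dual libraries. Mrc1, the mannose receptor of tissue macrophages, had 17.8, 21.4, 13.4 and 14.7 CPM in dual libraries, against 48.3, 32.5, 39.2 and 29.3 CPM in paternal libraries. All 4 dual libraries lay below all 4 paternal ones. The log2 fold change of Mrc1 was -1.17 ± 0.27, adjusted p = 0.0131, and the call was lost without male paternal 1, male dual 1 or female paternal 1 (highest adjusted p 0.0756). Mrc1 averaged 16.8 ± 3.55 CPM in dual and 37.3 ± 8.41 CPM in paternal libraries, beside 25.9 ± 4.88 CPM in maternal and 20.3 ± 11.98 CPM in control libraries (SD, n = 4 each), so the paternal group had the highest mean of the 4 exposures. Stab1, the scavenger receptor stabilin-1 of macrophages and some endothelia, had 27.8, 28.2, 21.4 and 21.5 CPM in dual libraries, against 49.1, 43.0, 51.4 and 41.2 CPM in paternal libraries. The groups did not overlap, and the fit gave -0.91 ± 0.15, adjusted p = 0.00128. Adgre1, which encodes the macrophage surface protein F4/80, had 2.69, 3.06, 2.93 and 2.71 CPM in dual libraries, against 6.85, 4.85, 5.87 and 5.29 CPM in paternal libraries. The groups did not overlap, and the fit gave -1.0005 ± 0.18, adjusted p = 0.00179. Stab1 and Adgre1 passed in each of the 16 fits that left out 1 library.

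Other genes of phagocytes fell with them.
F13a1, the coagulation factor XIII A subunit found in border macrophages, fell by 1.15 (adjusted p = 0.0235), the lysozyme gene Lyz2 by 1.14 (adjusted p = 0.0126) and the Fc receptor gene Fcgr3 by 1.06 (adjusted p = 0.0104).
The neonatal Fc receptor gene Fcgrt fell by 1.02 (adjusted p = 0.027) and Cyba, a subunit of the phagocyte NADPH oxidase, by 0.92 (adjusted p = 0.00888).
The call of F13a1 was lost without male paternal 1, male dual 1, male dual 2, female paternal 1, female dual 1 or female dual 2 (highest adjusted p 0.0995).
That of Lyz2 was lost without male paternal 2, male dual 1 or female dual 2 (highest adjusted p 0.0786), and that of Fcgrt without male paternal 1, male dual 1, male dual 2, female paternal 1, female dual 1 or female dual 2 (highest adjusted p 0.11).
Fcgr3 and Cyba lost theirs without male paternal 1 alone, with adjusted p-values of 0.0505 and 0.0591.
Of 16 microglia and macrophage genes 5 fell (Csf1r, Lyz2, Mrc1, C1qa and Fcrls) and 0 rose, and 12 were below 0 in both sexes. The falls were 31.2% of the list, against 3.05% of all coding genes.
Csf1r, the receptor that macrophages need to survive, had 16.6, 19.2, 13.7 and 10.3 CPM in dual libraries, against 26.4, 20.5, 23.98 and 20.1 CPM in paternal libraries.
Its log2 fold change was -0.63 ± 0.14, adjusted p = 0.0117, and the call was lost without male paternal 1, male dual 1, female paternal 1 or female dual 2 (highest adjusted p 0.0725).
Their median log2 fold change was -0.48 (-0.26 in males and -0.72 in females), and their summed level ran from 68.5 to 107 CPM in dual and from 122.0 to 151 CPM in paternal libraries.
The count fell to 0 without male dual 1 and to 1 without male paternal 1, female paternal 1 or female dual 2.
In bulk tissue fewer cells of a type and less RNA per cell cannot be told apart.
The Mrc1 start region at chr2:14229164-14229413 (plus strand, 250 bases before the RefSeq start on GRCm38.p6) is shown because, of the windows of 6 macrophage genes searched, it holds the most copies of GAGGAA, the core bound by PU.1, the factor that directs macrophage genes.
It has 3, all reversed and written TTCCTC in capitals, while the windows of F13a1, Stab1 and Fcgr3 have 1 each and those of Lyz2 and Cyba 0.
Mrc1 promoter: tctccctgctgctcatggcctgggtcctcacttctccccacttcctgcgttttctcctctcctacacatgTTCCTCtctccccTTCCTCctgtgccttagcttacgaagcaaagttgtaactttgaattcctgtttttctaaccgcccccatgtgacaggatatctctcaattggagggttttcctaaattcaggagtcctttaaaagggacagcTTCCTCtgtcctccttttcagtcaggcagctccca
On either strand, the motif was in 23.3% of the 32851 windows, and the copies say nothing of binding in these cells.

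Of the vessel genes 9 fell in dual libraries. Pecam1, an adhesion protein of endothelial cells, had 20.5, 20.1, 17.7 and 14.6 CPM in dual libraries, against 27.3, 24.4, 25.7 and 25.7 CPM in paternal libraries. The dual and paternal libraries did not overlap, the log2 fold change was -0.51 ± 0.09, adjusted p = 0.00293, and the gene passed in each fit that left out 1 library. Of 17 endothelial and pericyte genes 9 fell (52.9%, against 3.05% of all coding genes) and 0 rose, and 14 were below 0 in both sexes. Beside Pecam1 these were Slc2a1, the glucose transporter of brain vessels (log2 fold change -0.36), Cdh5 or VE-cadherin (-0.49), and the vessel receptors Tie1 (-0.47) and Tek (-0.48). The others were the tight junction gene Cldn5 (-0.49), and the pericyte genes Rgs5 (-0.27), Kcnj8 (-0.60) and Pdgfrb (-0.30). The list's median log2 fold change was -0.39 (-0.28 in males and -0.51 in females), and its summed level ran from 437 to 550.0 CPM in dual and from 599 to 663 CPM in paternal libraries. Leaving out 1 library left 1 member called (male paternal 1 or female dual 2), 3 (male dual 1 or female paternal 1) or 4 (male dual 2 or female paternal 2), and without TMM 5 were called. Npr1, a natriuretic peptide receptor, fell by 1.06 (adjusted p = 0.0265) and Scarf1, a scavenger receptor of endothelial cells, by 0.90 (adjusted p = 0.0142). The call of Npr1 was lost without male paternal 1, male dual 1, female paternal 1, female paternal 2, female dual 1 or female dual 2 (highest adjusted p 0.182). That of Scarf1 was lost without male paternal 1, female paternal 1 or female dual 2 (highest adjusted p 0.0594).

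Meningeal genes had lower summed levels in dual than in paternal libraries, and the number called changed with the libraries in the fit. Of 16 meningeal genes 1 fell, Foxc1, a transcription factor of the meninges, with 16.2, 14.2, 13.6 and 15.2 CPM in dual libraries, against 24.3, 19.7, 23.7 and 18.5 CPM in paternal libraries. The fit gave a log2 fold change of -0.54 ± 0.16, adjusted p = 0.0471. Of the 16 genes 10 fell without female control 1, without female control 2 and with the 8 dual and paternal libraries alone, and 12 without a filter on low counts. None (0) fell without male paternal 1, male dual 1, female paternal 1 or either female dual library. The call of Foxc1 was lost in 12 of the 16 fits that left out 1 library, with adjusted p-values of at most 0.183. Col3a1, a fibrillar collagen, had 108, 114, 72.2 and 58.1 CPM in dual libraries, against 171, 142, 172 and 144 CPM in paternal libraries, a log2 fold change of -0.89 and an adjusted p of 0.0515. The meningeal list had a median of -0.68 (-0.47 in males and -0.88 in females), and its summed level ran from 405 to 601 CPM in dual and from 657 to 795 CPM in paternal libraries, without overlap. Lgals1, or galectin-1, had 7.80, 8.88, 5.57 and 5.03 CPM in dual libraries, against 17.3, 10.7, 12.3 and 9.45 CPM in paternal libraries, and fell by 0.89 (adjusted p = 0.0026). Svep1, an extracellular matrix protein, fell by 1.01 (adjusted p = 0.0338), a call lost without male paternal 1, male dual 1, female paternal 1, female dual 1 or female dual 2 (highest adjusted p 0.164). The amino acid transporter Slc38a4, which is imprinted in the mouse, fell by 0.94 (adjusted p = 0.0123), a call lost without male paternal 1, male dual 1 or female paternal 1 (highest adjusted p 0.0936). Sidt1 fell by 0.86 (adjusted p = 0.0381), a call lost in 9 of the 16 omissions (highest adjusted p 0.149). The summed erythroid list ran from 371 to 527 CPM in dual and from 476 to 1197 CPM in paternal libraries, with overlap. The sums of the meningeal, vessel and macrophage lists were lower in dual than in paternal libraries without overlap. In control libraries these sums ran from 268 to 722, from 434 to 652 and from 79.2 to 124 CPM in that order, overlapping the dual ranges. Female control 1 was the lowest control in each, and the other controls began at 617, 587 and 104 CPM. In maternal libraries they ran from 566 to 894, from 594 to 671 and from 93.3 to 127 CPM. The part of tissue makeup in the other results was not tested.

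**Figure D1:**
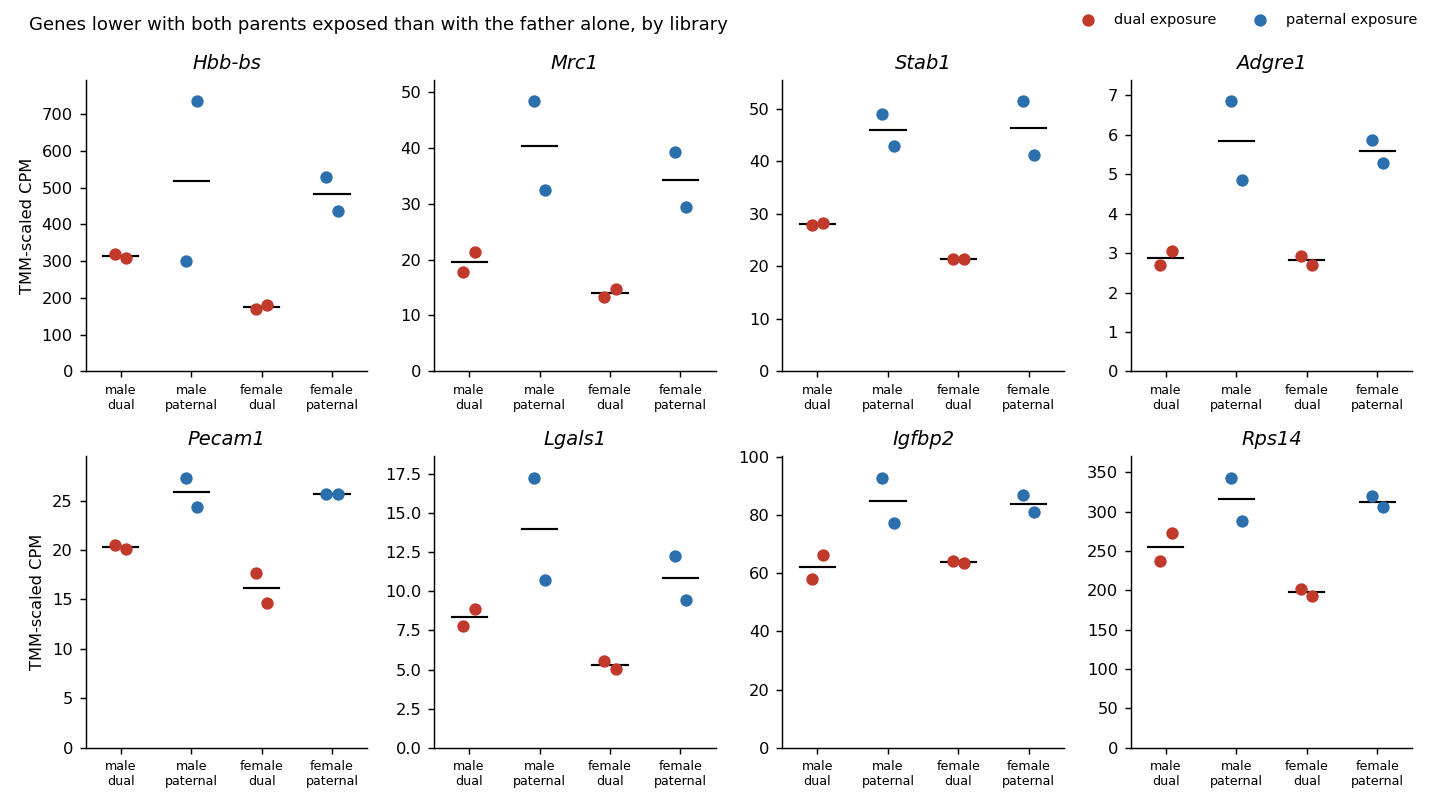
TMM-scaled CPM (linear axis from 0) of 8 genes that fell, with 1 point per library and a bar at each group mean, in male dual, male paternal, female dual and female paternal libraries. All 4 dual points lie below all 4 paternal points for Mrc1, Stab1 and Pecam1, while Hbb-bs overlaps in males, where the paternal libraries are at 302 and 735 CPM.

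Binding proteins of insulin-like growth factors fell together with the imprinted RNA H19. Igfbp2, which binds IGF2 and IGF1 in the fetal brain, had 58.0, 66.3, 64.2 and 63.6 CPM in dual libraries, against 92.8, 77.0, 86.7 and 81.0 CPM in paternal libraries. All 4 dual libraries lay below all 4 paternal libraries, and the log2 fold change was -0.42 ± 0.07, adjusted p = 0.00169 (-0.45 in males and -0.39 in females). Igfbp4 fell by 0.41 (adjusted p = 0.00467), Igfbp3 by 0.38 (adjusted p = 0.0157) and H19, a maternally expressed RNA whose locus neighbours Igf2, by 0.44 (adjusted p = 0.0465). The calls of Igfbp2 and Igfbp4 held in each fit that left out 1 library. That of Igfbp3 was lost without male paternal 1, male dual 1 or female dual 1 (highest adjusted p 0.111), and that of H19 was lost in 11 of those fits, in DESeq2 and without TMM (highest adjusted p 0.231). The growth factors themselves did not pass: Igf2 had a log2 fold change of -0.39 ± 0.24, adjusted p = 0.321 and Igf1 one of -0.39 ± 0.16, adjusted p = 0.137. Nor did their receptors Igf1r (0.06) and Igf2r (-0.04), so 4 of 13 genes of the axis fell (30.8%, against 2.16% of all genes tested) and 0 rose. The median was -0.15, and 2 fell without male paternal 1, male dual 1 or female dual 1.

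Part of the genes of protein synthesis and energy supply fell, by small amounts. Rps14, a protein of the small ribosomal subunit, had 237, 273, 202 and 193 CPM in dual libraries, against 343, 288, 319 and 306 CPM in paternal libraries. The dual libraries lay below the paternal ones without overlap, and the log2 fold change was -0.49 ± 0.08, adjusted p = 0.00085. Of 79 cytoplasmic ribosomal protein genes 33 fell and 0 rose, 68 were below 0 in both sexes, and the median log2 fold change was -0.17 (-0.15 in males and -0.22 in females), against -0.05 over all 15009 protein-coding genes tested. Their summed level ran from 15013 to 18134 CPM in dual and from 17584 to 20529.6 CPM in paternal libraries, and male dual 2 lay above male paternal 2. Male paternal 1 had the highest sum of the 16 libraries. Male dual 1 (16750 CPM) lay between the male control libraries (17200 and 16030 CPM), and male dual 2 lay above both. The female control libraries (18940 and 18010 CPM) lay above both female dual libraries. Of 78 nuclear-encoded genes of oxidative phosphorylation 16 fell and 0 rose, with a median of -0.16. Atp5d (-0.33 ± 0.06, adjusted p = 0.0019) and Atp5b (-0.25 ± 0.05, adjusted p = 0.00445), subunits of the ATP synthase, were among them, whereas 0 of the 13 mitochondrially encoded mRNAs passed, with a median of 0.23. Of those 13, 5 rose with the 8 dual and paternal libraries alone, 4 with sex as a block in those 8, 6 without a filter on low counts and 1 without either male maternal library. Of 41 proteasome genes 6 fell, among them Psmb4 (-0.31 ± 0.06, adjusted p = 0.003). Of 66 translation factors 6 fell, among them Eif6 (-0.41 ± 0.09, adjusted p = 0.00765). These shares, 14.6% and 9.09%, beside 41.8% of the ribosomal and 20.5% of the oxidative phosphorylation genes, stand against 3.05% of all coding genes that fell. Of 74 mitochondrial ribosomal proteins 4 fell (5.41%), a share near that background, among them Mrps12 (-0.48 ± 0.10, adjusted p = 0.00616), with 0 rises in each list. Short coding genes fell more often: at a mean log2 CPM of at least 2, 10.3% of those under 3 kb and 7.14% of those of 3 to 10 kb fell. Their medians were -0.16 and -0.12, and the part of gene length in these lists was not tested. Tuba1a, the main alpha-tubulin of young neurons, had 3104, 3157, 2724 and 2624 CPM in dual libraries, against 3925, 3256, 3430.0 and 3644 CPM in paternal libraries. On the log2 scale the difference was -0.30 ± 0.06, adjusted p = 0.0033, and Tuba1b fell by 0.30.

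Ribosomal protein genes have many pseudogene copies, between which reads could be split, and the counts above depended on single libraries. Without male paternal 1, or without male dual 1, 14 ribosomal and 3 oxidative phosphorylation genes passed, without female paternal 1 17 and 6, and without female dual 2 20 and 7. Without TMM 22 and 5 passed, and with protein-coding genes tested alone 12 and 3. Under the same 4 omissions 0 or 1 translation factor and 1 proteasome gene fell, and without female dual 2 also 1 translation factor rose. Without TMM 1 translation factor and 1 proteasome gene fell. Without female control 1 the falls were 15 translation factors, 12 proteasome, 42 ribosomal and 24 oxidative phosphorylation genes, and without female control 2 they were 16, 12, 42 and 26. Falls of mitochondrial ribosomal proteins numbered 2 to 7 over the 16 omissions. Without male paternal 2, 43 ribosomal and 23 oxidative phosphorylation genes passed, and without female paternal 2, 29 and 10. Eif6 lost its call without male paternal 1 or male dual 1 (highest adjusted p 0.0582), while Rps14, Rps7, Rplp1, Rpl37, Rpl34, Atp5d, Atp5b, Psmb4, Mrps12, Tuba1a and Tuba1b passed in each of the 16. With the TEC and sense-intronic share as a covariate, the log2 fold change was 0.14 for Rps14, 0.02 for Atp5b, 0.12 for Igfbp2 and -0.03 for Tuba1a. It was -0.73 for Stab1, -0.67 for Pecam1 and -2.13 for Hbb-bs.

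Several long RNAs that stay in the nucleus rose, some at high levels. Kcnq1ot1, an antisense RNA made from the paternal chromosome that silences its imprinted neighbours, had 163, 133, 241 and 283 CPM in dual libraries, against 87.1, 117, 90.3 and 98.0 CPM in paternal libraries. All 4 dual libraries lay above all 4 paternal ones, with a log2 fold change of 1.01 ± 0.11, adjusted p = 5.64e-05 (0.54 in males and 1.48 in females), and its levels were 114 ± 9.98 CPM in maternal and 124 ± 43.3 CPM in control libraries. Snhg14, the long imprinted transcript that hosts small nucleolar RNAs and runs antisense to Ube3a, had 184, 156, 202 and 242 CPM in dual libraries, against 116, 139, 133 and 148 CPM in paternal libraries. This was a log2 fold change of 0.54 ± 0.08, adjusted p = 0.000531. Malat1, an RNA of nuclear speckles, had 4263, 3681, 5672 and 5847 CPM in dual libraries, against 2845, 4059, 3551 and 3312 CPM in paternal libraries. Its male groups overlapped, and its log2 fold change was 0.47 ± 0.10, adjusted p = 0.00576. Control libraries had 4146 and 5042 CPM in males and 2704 and 3198 CPM in females. Meg3 and Rian, maternally expressed RNAs of the same imprinted cluster, rose by 0.67 (adjusted p = 0.025) and 0.27 (adjusted p = 0.019). Both lost their calls without male paternal 1, male dual 1, female paternal 1 or 2, or female dual 2 (highest adjusted p 0.138 and 0.128). Of 12 nuclear-retained long RNAs 7 rose (58.3%, against 6.65% of all genes tested) and 0 fell, 11 were above 0 in both sexes, and the median log2 fold change was 0.56 (0.43 in males and 0.67 in females). Those 7 were Kcnq1ot1, Snhg14, Rmst, Xist, Malat1, Rian and Meg3. Their list's summed level ran from 5417 to 10472 CPM in dual and from 4184 to 5949 CPM in paternal libraries. By this sum male control libraries were at 6279 and 7491 CPM, beside 6289 and 5417 CPM in male dual libraries. Female control libraries (4607 and 5721 CPM) and female maternal libraries (6488 and 5662 CPM) lay below both female dual libraries.

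Xist, the RNA that coats the inactive X chromosome, was at 1641 and 1671 CPM in female dual libraries, against 683 and 758 CPM in female paternal libraries. Its log2 fold change in females was 1.202 ± 0.16, adjusted p = 0.00015. Female maternal libraries were at 816 and 731 CPM and female control libraries at 503 and 594 CPM, so both female dual libraries lay above the other 6 female libraries. Male libraries, which have a single X, held 18 and 26 Xist counts in dual and 10 and 0 counts in paternal libraries, so its call over both sexes, 1 of the 7 above, rests in part on counts near 0. The log2 fold change over both sexes was 1.72, and without male paternal 1 it was 4.75.

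Antisense RNAs formed a large part of the named rises. Nrg3os, antisense to the neuregulin gene Nrg3, had 3.07, 2.99, 5.21 and 8.41 CPM in dual libraries, against 1.56, 1.80, 0.878 and 0.892 CPM in paternal libraries. The groups did not overlap, and the fit gave 1.89 ± 0.24, adjusted p = 0.000196. Plxna4os2 rose by 1.34, Sorbs2os by 1.196, C79798 by 1.19, Dnm3os by 1.17 and Slain1os by 1.10, with adjusted p-values of 0.000196, 0.0156, 0.0235, 0.00159 and 0.00131 in that order. Sorbs2os lost its call without male paternal 1, male dual 1, female paternal 1 or female dual 2 (highest adjusted p 0.147), and C79798 without male paternal 1, male dual 1, female paternal 1, female paternal 2 or female dual 2 (highest adjusted p 0.175). Whether counting used the strand of the reads is not given in the sources used here, so reads of an antisense gene and of the gene opposite it may be mixed.

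Coding genes that rose were fewer, and those with the largest folds had low levels. Lrtm1, which encodes a leucine-rich repeat membrane protein, had 4.03, 3.52, 4.62 and 5.31 CPM in dual libraries, against 1.56, 1.52, 1.56 and 1.54 CPM in paternal libraries. The dual libraries lay above the paternal ones without overlap, and the log2 fold change was 1.48 ± 0.24, adjusted p = 0.000922 (1.29 in males and 1.67 in females). Its levels were 1.68 ± 0.240 CPM in maternal and 2.79 ± 1.37 CPM in control libraries. D10Wsu102e, a coding gene, had a high level, with 396, 327, 471 and 478 CPM in dual libraries, against 207, 279, 234 and 221 CPM in paternal libraries. It did not overlap either, and its log2 fold change was 0.82 ± 0.09, adjusted p = 5.46e-05. D10Wsu102e averaged 300 ± 25.5 CPM in maternal and 315 ± 37.7 CPM in control libraries. Gpr82, an orphan receptor gene, rose by 1.23 (adjusted p = 0.00407), Arntl2, a clock-related transcription factor, by 1.16 (adjusted p = 0.0106) and Adam4 by 1.14 (adjusted p = 0.0057). The meiotic chromosome gene Sycp2 rose by 1.07 (adjusted p = 0.00743) and P2ry14, a receptor for UDP-sugars, by 1.04 (adjusted p = 0.00456). Arntl2 lost its call without male paternal 1 or male dual 1 (highest adjusted p 0.105). Slc6a20b, which rose by 1.02 (adjusted p = 0.0469), lost its call in 9 of the 16 fits that left out 1 library and with protein-coding genes tested alone (highest adjusted p 0.293). Slc16a4, a member of the monocarboxylate transporter family, had 10.7, 7.89, 11.6 and 11.3 CPM in dual libraries, against 3.95, 5.97, 5.60 and 6.003 CPM in paternal libraries. Its log2 fold change was 0.94 ± 0.15, adjusted p = 0.000945. Ttn, the gene of the giant protein titin, had 13.4, 12.6, 14.4 and 16.9 CPM in dual libraries, against 6.40, 8.79, 9.60 and 10.3 CPM in paternal libraries. The fit gave a log2 fold change of 0.71 ± 0.12, adjusted p = 0.00177. Both were above the paternal libraries in all 4 dual libraries.

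**Figure D2:**
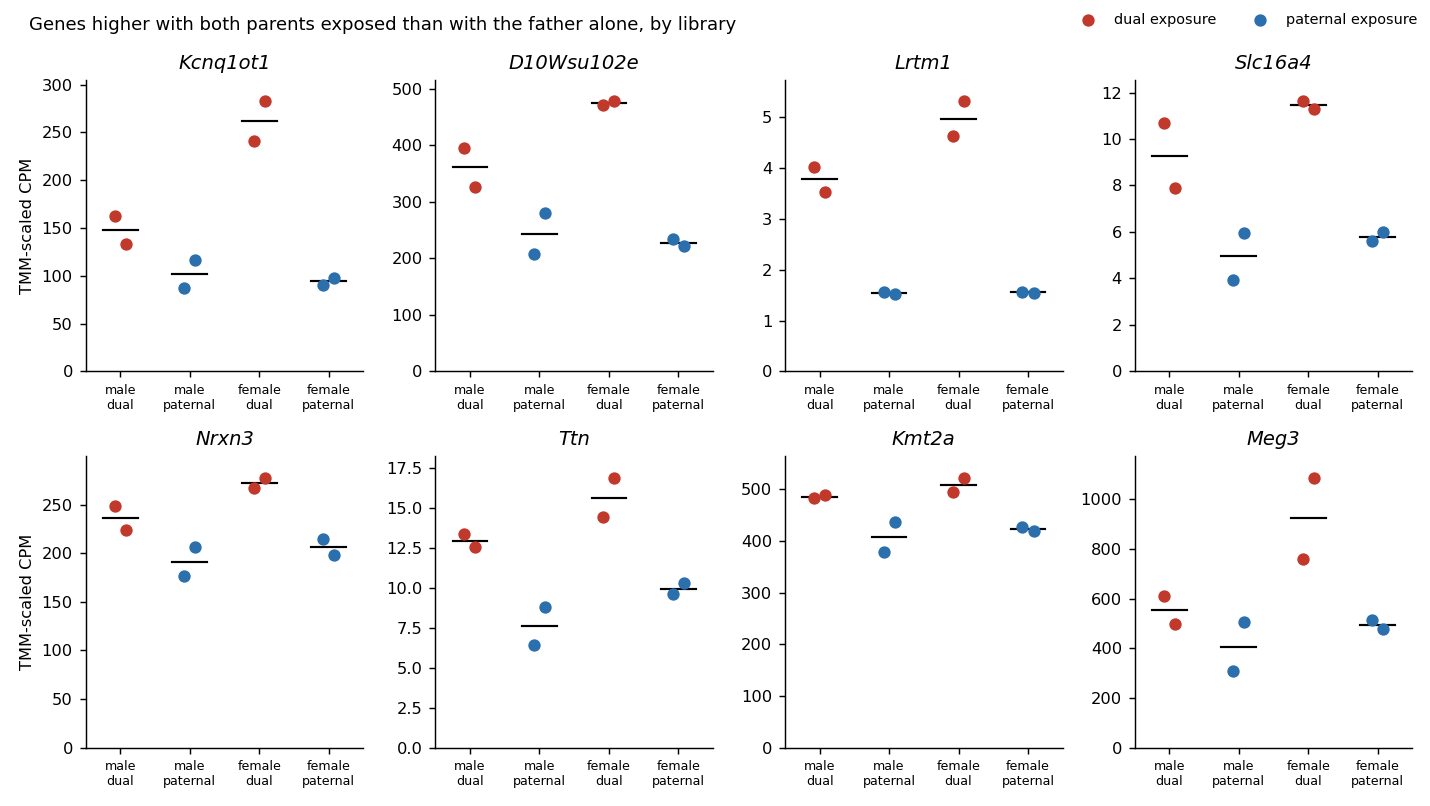
TMM-scaled CPM (linear axis from 0) of 8 genes that rose, with 1 point per library and a bar at each group mean, in male dual, male paternal, female dual and female paternal libraries. Kcnq1ot1, D10Wsu102e, Lrtm1 and Nrxn3 have all 4 dual points above all 4 paternal points, and for Kcnq1ot1 the female dual points (241 and 283 CPM) lie above the male dual points (163 and 133 CPM).

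Several long neuronal genes rose by small amounts at high levels. Nrxn3, a presynaptic adhesion molecule, had 249, 223, 267 and 278 CPM in dual libraries, against 177, 206, 214 and 198 CPM in paternal libraries. The groups did not overlap, the log2 fold change was 0.35 ± 0.06, adjusted p = 0.00142 (0.30 in males and 0.40 in females), and the call held in each fit that left out 1 library. Of 35 synaptic adhesion and scaffold genes 4 rose (Nrxn3, Csmd1, Csmd3 and Ptprd) and 0 fell, with a median of 0.06. That was 11.4% of the list, against 6.65% of all genes tested and 1.54% of coding genes. At a mean log2 CPM of at least 2, 3.46% of coding genes spanning 100 to 300 kb rose and 8.13% of those of 300 kb and over. The part of gene length in the lists of this paragraph was not tested. Of 21 glutamate receptor genes 3 rose (14.3%): the kainate receptor subunit Grik2 (0.30 ± 0.06, adjusted p = 0.00637), the AMPA receptor subunit Gria2 (0.34 ± 0.08, adjusted p = 0.0165) and the metabotropic receptor Grm8 (0.69 ± 0.18, adjusted p = 0.0232). Of 26 voltage-gated channel genes 4 rose (15.4%): the calcium channel subunits Cacna1d (0.35), Cacna1b (0.29) and Cacna1e (0.24) and the potassium channel Kcnh7 (0.26). Nrxn3 and Grik2 passed in each of the 16 omissions, but without male paternal 1 or male dual 1 the 3 lists held 1, 1 and 0 calls, without female dual 2 again 1, 1 and 0, and without female paternal 1 2, 1 and 0. Without female control 1 they held 4, 5 and 8 calls. The postsynaptic scaffold gene Lrrc7 rose by 0.52 (adjusted p = 0.000166) and Ntrk3, the receptor for neurotrophin-3, by 0.27 (adjusted p = 0.00345).

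Clustered protocadherins, surface proteins whose isoform choice gives neurons their identity, gave calls in 1 direction. Pcdhgb5 had 15.8, 15.8, 28.0 and 24.2 CPM in dual libraries, against 13.2, 12.7, 14.2 and 14.9 CPM in paternal libraries. The groups did not overlap, and the fit gave 0.57 ± 0.10, adjusted p = 0.00157. Pcdhgb4 (0.63 ± 0.12, adjusted p = 0.00386) and Pcdha8 (0.99 ± 0.20, adjusted p = 0.00526) rose as well and, like Pcdhgb5, passed in each fit that left out 1 library. Of 54 protocadherins tested 7 rose (13%) and 0 fell, 36 were above 0 in both sexes, and the median log2 fold change was 0.19. Rises made up 6.65% of all genes tested and 1.54% of coding genes. Pcdha isoforms share their last exons, as do Pcdhg isoforms, so reads there could be split in a way the sources used here do not state. Without male paternal 1 or male dual 1, 3 of them passed, and without male paternal 2 or either female dual library, 4.

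Among regulators of RNA and chromatin, 5 of 34 splicing regulators rose (14.7%) and 1 fell (2.94%), against 6.65% and 2.16% of all genes tested. Of coding genes 1.54% rose and 3.05% fell, so the share of falls was near that background. Nktr, a cyclophilin with a repeat rich in arginine and serine, had 143, 130.5, 178 and 188 CPM in dual libraries, against 94.9, 124, 117 and 123 CPM in paternal libraries. On the log2 scale the difference was 0.46 ± 0.07, adjusted p = 0.000828, and Pnisr (0.30), Luc7l2 (0.27) and Tra2a (0.29) rose less. Srsf2, an SR protein, fell by 0.25 (adjusted p = 0.0134). Nktr alone of these 5 passed in each fit that left out 1 library, and 1 to 2 members of the list rose without male paternal 1, male dual 1, female paternal 1 or female dual 2, and 8 without female control 1. The H3K4 methyltransferase genes Kmt2d (0.24 ± 0.05, adjusted p = 0.00277), Kmt2a (0.26 ± 0.05, adjusted p = 0.00455) and Kmt2c (0.22 ± 0.05, adjusted p = 0.0139) rose among 19 genes of H3K4 and H3K27 methylation, with 0 falls. They were 15.8% of that list, against 6.65% of all genes tested and 1.54% of coding genes. Kmt2a had 482, 488, 495 and 523 CPM in dual libraries, against 379, 436, 428 and 419.9 CPM in paternal libraries, without overlap. Kmt2c lost its call without male paternal 1, male dual 1 or female paternal 1 (highest adjusted p 0.0925), and Kmt2c and Kmt2d lost theirs without TMM. With the TEC and sense-intronic share as a covariate the log2 fold changes were 0.12 for Kmt2a, -0.13 for Nktr, -0.06 for Nrxn3 and 0.04 for Kcnq1ot1. They were 0.03 for D10Wsu102e and 0.26 for Pcdhgb5.

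The rises were concentrated in classes of genes that hold little mature mRNA. Of 1822 TEC genes 710 rose and 1 fell, with a median log2 fold change of 0.996 (0.51 in males and 1.48 in females). Of 219 sense-intronic genes 72 rose, of 1276 antisense genes 161, of 1222 processed pseudogenes 109 with 1 fall, and of 764 lincRNAs 66 with 2 falls. Protein-coding genes were the class with more falls than rises, with 231 rises (1.54%) and 458 falls (3.05%) among 15009. Of the 2041 TEC and sense-intronic genes tested, 1464 were intronic to a tested host gene (same strand, different class). Their median log2 fold change was 1.12 (0.57 in males and 1.65 in females), while that of their host genes was 0.03 (0.04 in males and 0.02 in females), and 1402 of them (95.8%) were above their host. Auts2, a long neuronal gene, held 22 tested intronic genes of which 21 rose, whereas Auts2 itself had a log2 fold change of 0.08 (adjusted p = 0.376). In Dlg2, which encodes a postsynaptic scaffold, 15 of 18 rose and the host was at 0.04 (adjusted p = 0.847), and in Ank2 all 12 rose and the host was at 0.19 (adjusted p = 0.100). Of the 353 hosts of intronic genes that rose, 22 rose themselves and 1 fell. The shares of counts on these classes were highest in the female dual libraries, as given above. Of 3541 TEC and sense-intronic genes 2041 were tested, and the filter can pass a gene on its counts in 2 libraries, the size of a group. A gene of low counts could thus enter through the female dual libraries alone. How far this raised the medians and counts of these classes, or their values above their hosts, was not tested.

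**Figure D3:**
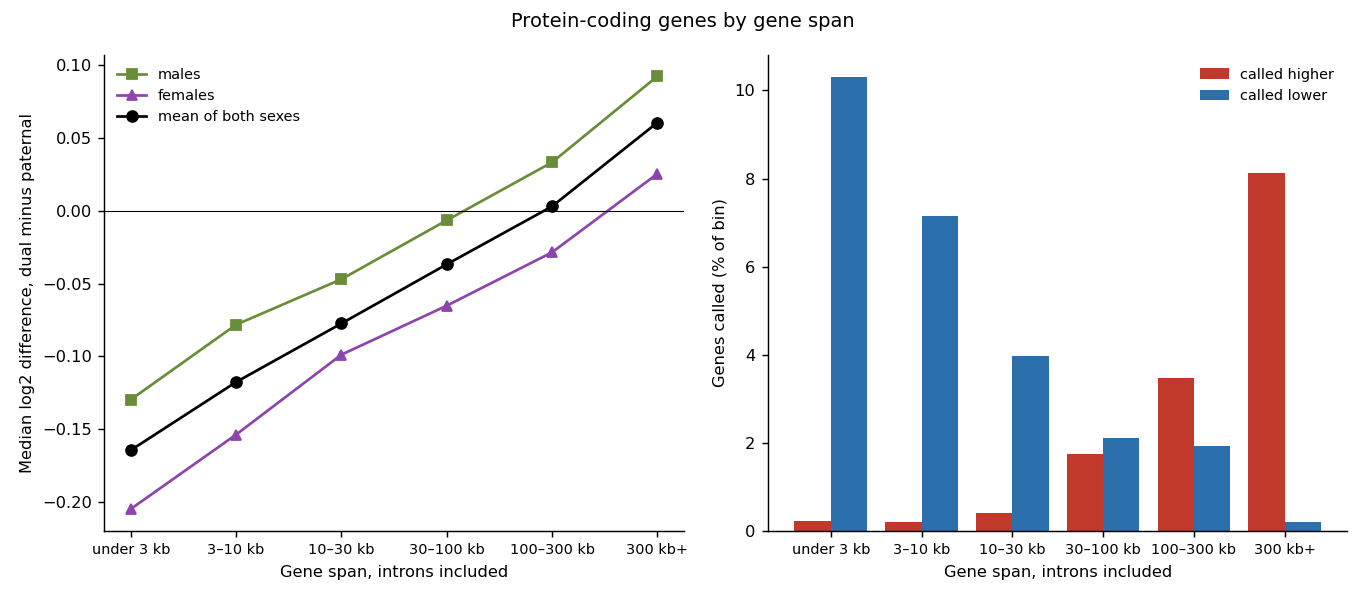
Median log2 fold change, dual minus paternal, of 11562 protein-coding genes by gene span (bins of kilobases) in males, females and their mean, with the percentage of each bin called higher and lower. The median over both sexes is -0.16 for genes under 3 kb and 0.06 for genes of 300 kb and over.

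Among coding genes the difference followed the length of the gene. In 11562 protein-coding genes with a mean log2 CPM of at least 2, the median log2 fold change was -0.16 for the 447 genes that span under 3 kb, -0.12 from 3 to 10 kb, -0.08 from 10 to 30 kb and -0.04 from 30 to 100 kb. It was 0.00 from 100 to 300 kb and 0.06 for the 492 genes of 300 kb and over. Falls made up 10.3% of the shortest bin and 0.203% of the longest, and rises 0.224% of the shortest and 8.13% of the longest. The order was the same in males (-0.13 to 0.09) and in females (-0.20 to 0.03). Called rises spanned a median of 109 kb (173 genes) and called falls one of 12.8 kb (435 genes), against 28.0 kb over all of them. Across these genes Spearman's rho with the log2 fold change was 0.35 for gene span, 0.37 for summed exon length and -0.28 for transcript GC content, a description over genes that share the same 8 libraries.

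Males and females were compared on separate libraries. In males alone 0 genes passed in edgeR (0% of 21543), with 1845 at an unadjusted p under 0.05, a lowest adjusted p of 0.340, and 12 calls in DESeq2. In females alone 2126 passed (9.87%), 1663 higher (7.72%) and 463 lower (2.15%), and without TMM 1635 higher and 82 lower. Leaving out 1 library gave females between 627 calls (female paternal 1) and 3230 (female control 2), with 921, 938 and 1045 without female paternal 2, female dual 2 and female dual 1 in that order. The difference between the sexes passed for 0 genes (0%) in the main edgeR fit, with 1804 at an unadjusted p under 0.05 and a lowest adjusted p of 0.0566. DESeq2 gave 71 calls. In edgeR the 8 dual and paternal libraries alone gave 34 calls, and all libraries without a filter on low counts 193. Of the 1432 rises over both sexes 1414 had the same sign in males and females, with medians of 0.78 in males and 1.76 in females. All 466 falls did, with medians of -0.23 and -0.35 in the same order of sexes, against 64.6% of all genes tested. The choice of genes by their mean over both sexes favours a shared sign. When the 200 coding genes of smallest p were instead taken from males, 89.5% of those lower in males were lower in females (69% of all coding genes were) and 76% of those higher in males were higher in females (31% of all). Taken from females, 90.5% of the falls and 89% of the rises had the same sign in males, against 57.3% and 42.7% of all coding genes. Over the 11562 coding genes Pearson's r between the male and female log2 fold changes was 0.417 and Spearman's rho 0.383.

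**Figure D4:**
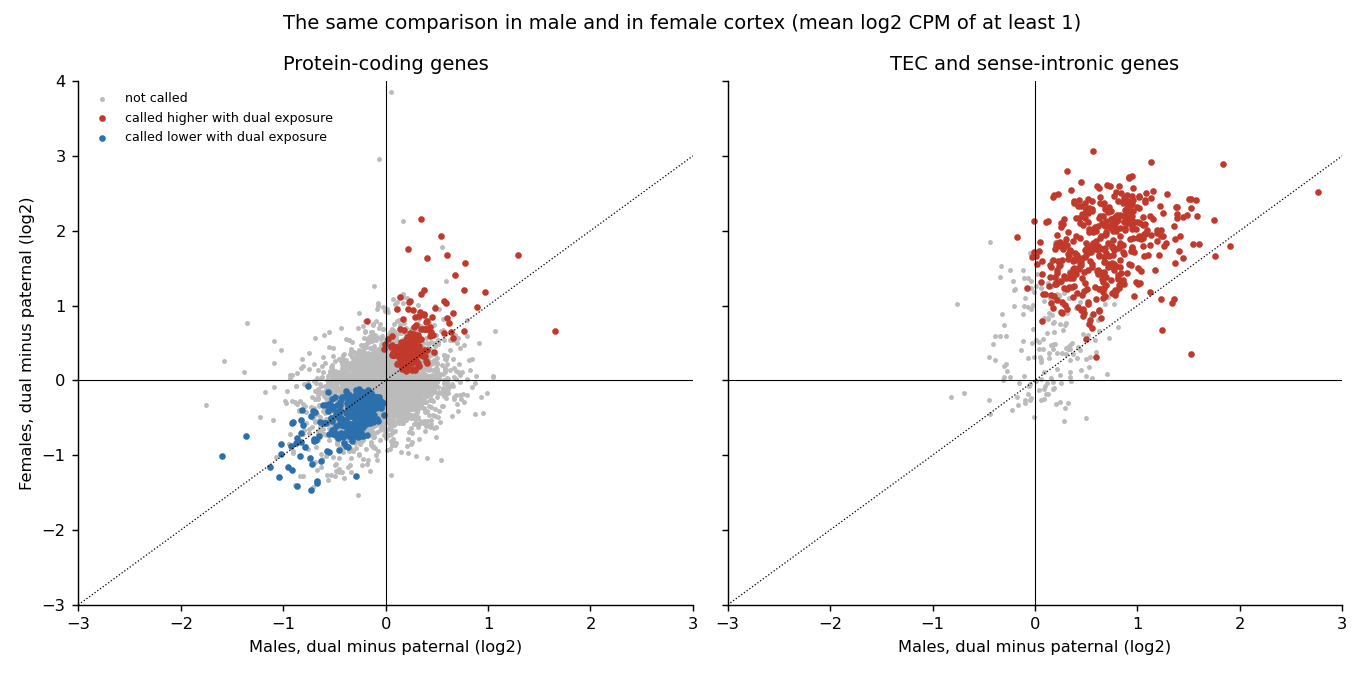
Log2 fold change, dual minus paternal, in females (vertical axis) against males (horizontal axis), 1 point per gene with a mean log2 CPM of at least 1, with protein-coding genes in the left panel and TEC and sense-intronic genes in the right panel. Most TEC and sense-intronic genes lie above 0 in females, where the TEC median is 1.48, with smaller values in males, where it is 0.51.

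The genes of smallest p in males did not pass there, with adjusted p-values from 0.355 to 0.358 in edgeR. They were D10Wsu102e, Ntrk3, Ttn, Arntl2 and Slc16a4, with positive values, and Triap1, Igfbp2, BC055324, Tmem39b and Bap1, with negative values. Triap1, an inhibitor of apoptosis downstream of p53, had 7.42, 6.35, 8.56 and 7.13 CPM in dual libraries, against 12.5, 11.8, 9.74 and 11.03 CPM in paternal libraries. This was a log2 fold change of -0.61 ± 0.12, adjusted p = 0.00344 (-0.81 in males and -0.40 in females). Bap1, a histone H2A deubiquitinase, had a range of 96.7 to 110.1 CPM in dual libraries, against 119.5 to 130.2 CPM in paternal libraries. Its log2 fold change was -0.27 ± 0.05, adjusted p = 0.00152, without overlap. Tmem39b fell by 0.36 over both sexes (adjusted p = 0.0238), a call lost without male paternal 1, male dual 2, female paternal 1, female paternal 2 or female dual 2 (highest adjusted p 0.122). BC055324 did not pass over both sexes (-0.34 ± 0.13, adjusted p = 0.122), with a log2 fold change of -0.83 in males and 0.16 in females. In females the rises were led by Kcnq1ot1, Nrg3os, D10Wsu102e, Plxna4os2 and Srrm4os, and the falls included Rpl34, Rps14, Hbb-bs and Rps7. Srrm4os, antisense to a neuronal splicing regulator gene, had 14.3, 13.3, 24.7 and 26.0 CPM in dual libraries, against 11.02, 12.7, 11.1 and 10.8 CPM in paternal libraries. Khdrbs2, an RNA-binding protein gene, had 45.4 and 49.1 CPM in female dual libraries, against 23.98 and 30.4 CPM in female paternal libraries. Their log2 fold changes were 0.22 in males and 1.21 in females for Srrm4os and -0.18 in males and 0.80 in females for Khdrbs2, and the difference between the sexes had adjusted p-values of 0.177 and 0.109 in that order. Other genes with the smallest p for this difference were Elfn1 (0.55 in males and -0.35 in females), Il17ra (0.48 in males and -0.64 in females), Tmem51 (0.54 in males and -1.06 in females), Samd12 (0.24 in males and -0.25 in females) and Nin (-0.01 in males and 0.49 in females), which did not pass in edgeR.

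**Figure D5:**
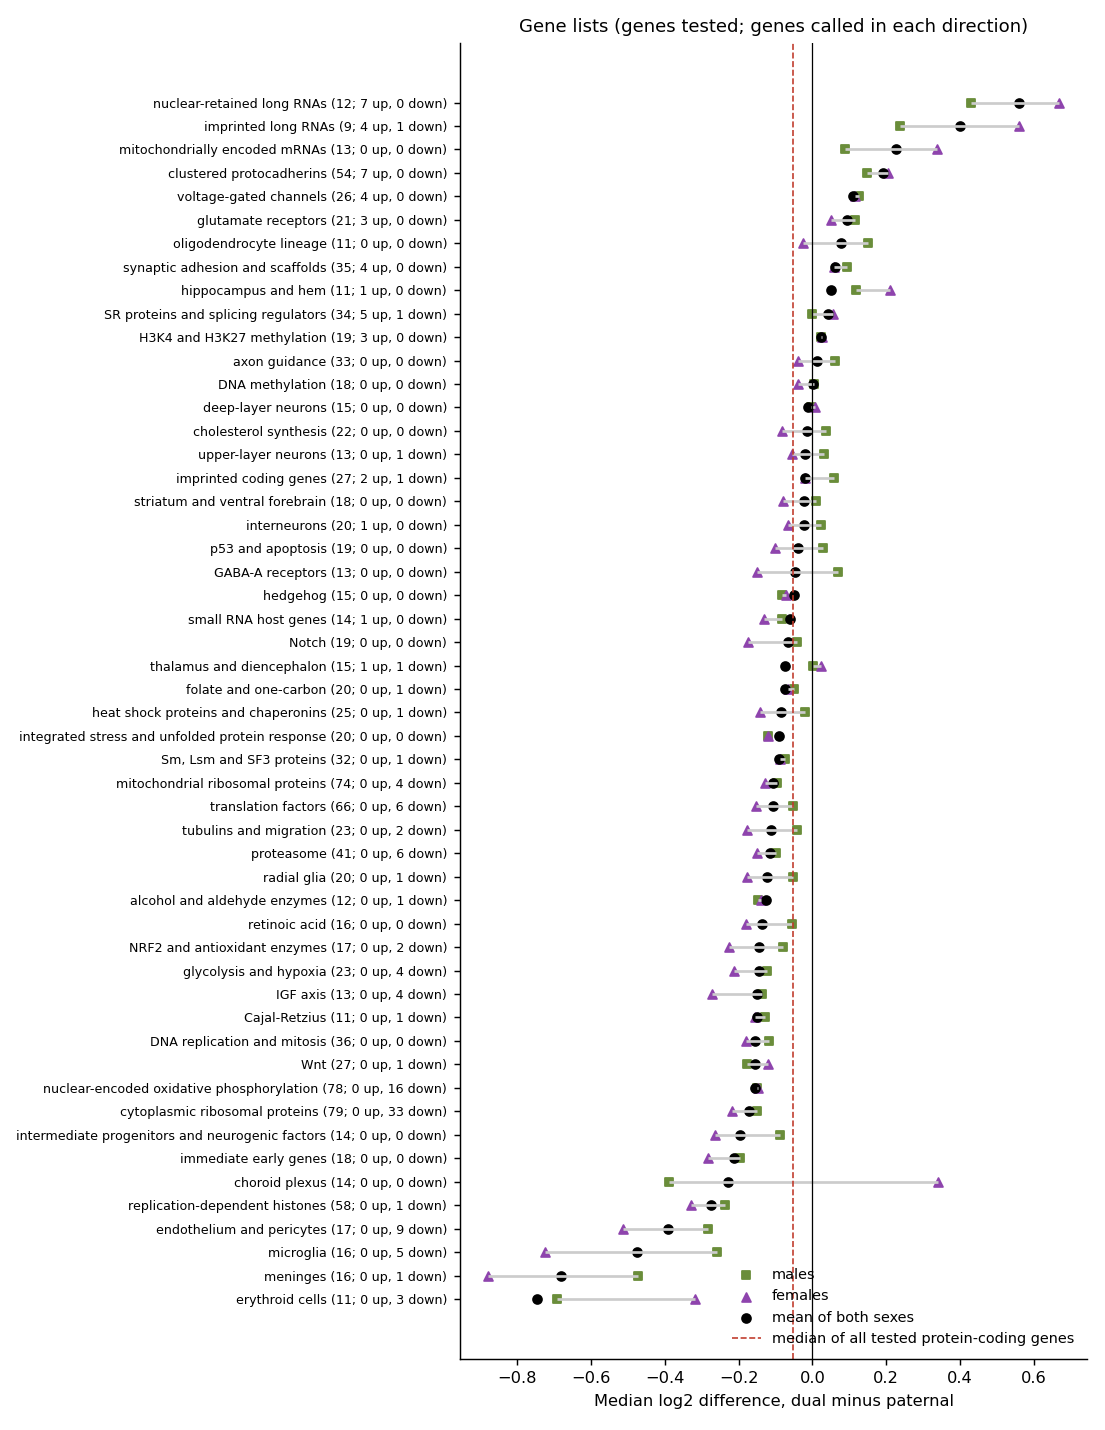
Median log2 fold change, dual minus paternal, of each gene list in males, in females and over both sexes, with the number of genes tested, higher and lower beside each name. The dashed line marks the median of all protein-coding genes, -0.05. Over both sexes, lists of macrophage, vessel, meningeal and erythroid genes lie furthest below it and nuclear-retained long RNAs furthest above it.

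Whether adding maternal exposure differed with the father's exposure was read from the difference between dual minus paternal and maternal minus control, which share no library. This difference passed for 907 genes (4.21%), 751 higher (3.49%) and 156 lower (0.724%), whereas maternal minus control passed for 0 genes (0%) in edgeR (817 at an unadjusted p under 0.05, and 2 calls in DESeq2). That 0 was 86 without female control 1, 115 without female control 2 and 79 without a filter on low counts. Leaving out 1 library gave 368 (male control 2), 426 (male dual 1) and 468 (male paternal 1). It gave 519 and 527 (female maternal libraries 1 and 2), 522 (female dual 2), 536 (female paternal 1) and, at the high end, 2169 calls (female control 1), and with protein-coding genes tested alone 5 passed. Lrtm1 had the largest such difference among the 9 genes higher by it out of the 30 with the largest changes over both sexes: dual minus paternal was 1.48 and maternal minus control -0.68, a difference of 2.16, adjusted p = 0.00191. For Kcnq1ot1 the 2 values were 1.01 and -0.06 (difference 1.07, adjusted p = 0.00111) and for D10Wsu102e 0.82 and -0.07 (0.88, adjusted p = 0.000971). For Lrrc7 they were 0.52 and -0.13 (0.65, adjusted p = 0.000981), and for Pcdhgb5 0.57 and -0.41 (0.98, adjusted p = 0.000981). Among the falls, Mrc1 was at -1.17 and 0.50 (-1.66, adjusted p = 0.0209) and H19 at -0.44 and 0.54 (-0.98, adjusted p = 0.007). Igfbp2 was at -0.42 and 0.14 (-0.56, adjusted p = 0.00603), and Shc1, an adaptor of receptor tyrosine kinases, at -0.59 and 0.23 (-0.83, adjusted p = 0.005). H19 itself had 126, 132, 102.4 and 101.4 CPM in dual libraries, against 152, 165, 181 and 122 CPM in paternal libraries. It averaged 158 ± 43.1 CPM in maternal and 110.3 ± 30.9 CPM in control libraries (SD, n = 4 each). By list, 25 of 79 ribosomal protein genes were lower by this difference and 0 higher (median -0.25, with 0.07 for maternal minus control). So were 5 of 17 vessel genes (median -0.46, with 0.15) and 3 of 16 meningeal genes (median -1.16, with 0.45). Of 16 microglia and macrophage genes 1 was lower (median -0.50, with 0.02), and of 11 erythroid genes 1 (median -0.76, with 0.14). Csf1r, Lyz2, C1qa and Fcrls did not pass by this difference (adjusted p = 0.152, 0.158, 0.442 and 0.123 in that order). Of the nuclear-retained long RNAs 5 of 12 were higher (median 0.52, with -0.06). Without male control 2, 8 ribosomal, 1 vessel and 0 meningeal genes were lower and 2 nuclear RNAs higher, and without female control 1 42, 8, 12 and 10 in that order.

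Female control 1 stood apart from the other controls on vessel and meningeal genes, and it enters maternal minus control. Its summed meningeal level was 268 CPM, against 722, 701 and 617 CPM in male control 1, male control 2 and female control 2. Its summed vessel level was 434 CPM, against 652, 587 and 641 CPM in the same order. Without it the median of the difference was -0.80 for meningeal and -0.32 for vessel genes, and that of maternal minus control 0.14 and 0.0022. Without female control 2 the difference had medians of -1.94 for meningeal and -0.68 for vessel genes, and maternal minus control 1.1996 and 0.33. Mrc1 was at 4.50 CPM in female control 1, against 32.6, 25.4 and 18.6 CPM in the other controls in the same order. Without female control 1 the maternal minus control value of Mrc1 was 0.15 and the difference -1.32, and without female control 2 they were 1.18 and -2.35.

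Genes that define cortical cells gave few calls. The deep-layer factor Tbr1 ran from 324 to 347 CPM in dual and from 311 to 379 CPM in paternal libraries. Neurod6, a factor of young excitatory neurons, ran from 357 to 424 CPM in dual and from 355 to 449.6 CPM in paternal libraries. Emx1, a factor of the dorsal forebrain, ran from 13.9 to 14.6 CPM in dual and from 13.4 to 16.1 CPM in paternal libraries. The cortex label matched these markers in all 8 libraries. Of 15 deep-layer, 14 intermediate progenitor, 33 axon guidance, 13 GABA-A receptor, 36 DNA replication and 18 DNA methylation genes 0 passed in edgeR. Eomes, the factor of intermediate progenitors, had 55.4, 75.4, 70.0 and 49.1 CPM in dual libraries, against 76.7, 71.9, 73.5 and 79.2 CPM in paternal libraries, with overlap and a log2 fold change of -0.27 ± 0.15, adjusted p = 0.289. Of 20 radial glia genes 1 fell, Lhx2, a factor that keeps cortical identity (-0.25 ± 0.07, adjusted p = 0.0306). Of 13 upper-layer genes 1 fell, Plxnd1 (-0.25 ± 0.07, adjusted p = 0.0444), and of 20 interneuron genes 1 rose, Adarb2 (0.54 ± 0.10, adjusted p = 0.00192). Lhx2 lost its call without male paternal 1, male dual 1, female paternal 2 or female dual 2 (highest adjusted p 0.154), and Plxnd1 lost its call in 10 of the 16 omissions (highest adjusted p 0.205). Of 11 Cajal-Retzius genes 1 fell, Cxcl12, a chemokine that meninges also make (-0.57 ± 0.15, adjusted p = 0.029), a call lost without male paternal 1, male dual 1, male dual 2, female paternal 1, female paternal 2 or female dual 2 (highest adjusted p 0.133). Without female control 1, 3 radial glia and 2 intermediate progenitor genes fell and 2 interneuron genes rose, and without female control 2 3, 3 and 2. Of 11 genes of the hippocampus and its border 1 rose, Zbtb20 (0.33 ± 0.08, adjusted p = 0.0172), a call lost without male paternal 1, male dual 1, male dual 2, female paternal 1, female paternal 2 or female dual 1 (highest adjusted p 0.103). Ttr, which marks choroid plexus, was at 1.15, 1.07, 3.84 and 156 CPM in dual and at 29.9, 14.4, 118 and 1.01 CPM in paternal libraries, a spread within groups that left 0 of 14 choroid plexus genes called.

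Genes tied to ethanol and its stress gave few calls per list. Falls made up 8.33% of the alcohol and aldehyde list, 11.8% of the antioxidant list and 17.4% of the glycolysis list. They made up 5% of the folate list and 3.7% of the Wnt list, against 3.05% of all coding genes. Of 12 alcohol and aldehyde enzymes 1 fell, the aldehyde reductase Akr1a1, with 222, 228, 210.2 and 198 CPM in dual libraries, against 282, 232, 256 and 254 CPM in paternal libraries. The fit gave a log2 fold change of -0.25 ± 0.06, adjusted p = 0.0208. Leaving out male paternal 1, male dual 1, female paternal 1, female paternal 2 or female dual 2 (highest adjusted p 0.127) ended the call. Of 17 antioxidant and NRF2 genes 2 fell, the glutathione peroxidases Gpx1 (-0.22 ± 0.06, adjusted p = 0.0341) and Gpx4 (-0.24 ± 0.07, adjusted p = 0.0456). Both glutathione peroxidases lost their calls without male paternal 1 or 2, male dual 1, female paternal 1, female dual 1 or female dual 2. Gpx4 also lost its call without male control 1 or 2, male dual 2 or either female maternal library, 11 of the 16 omissions in all. In these lists 4 alcohol and aldehyde enzymes and 6 antioxidant genes fell when female control 1 or female control 2 was left out. Of 20 folate and one-carbon genes 1 fell, Ahcy, which clears S-adenosylhomocysteine, with 31.3, 33.2, 30.6 and 27.6 CPM in dual libraries, against 44.6, 38.9, 39.3 and 35.7 CPM in paternal libraries. On the log2 scale the difference was -0.37 ± 0.07, adjusted p = 0.00445. It passed in each omission. Of 23 glycolysis and hypoxia genes 4 fell, among them Gapdh (-0.19 ± 0.06, adjusted p = 0.0368), with 0 calls without male paternal 1 or male dual 1 and 1 without female paternal 1 or female dual 2. Of the 23 genes 7 fell and 1 rose when female control 1 or female control 2 was left out. Of 20 genes of the integrated stress and unfolded protein response, 19 p53 and apoptosis genes, 22 cholesterol synthesis genes, 16 retinoic acid genes, 15 hedgehog, 19 Notch and 18 immediate early genes 0 passed in edgeR. In those lists 2 p53 and apoptosis and 2 retinoic acid genes fell when female control 1 or female control 2 was left out. In the Wnt list 1 of 27 fell, the co-receptor Lrp5 (-0.41 ± 0.10, adjusted p = 0.0136), a call lost without male paternal 1, male dual 1, female paternal 1 or female dual 2 (highest adjusted p 0.0885), and 4 fell without male paternal 2, female control 1 or female control 2.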

How the data were processed

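Total RNA was measured in 16 libraries, and the deposited values are read counts per gene, 1 table per library, made with Trimmomatic, STAR and featureCounts on GRCm39, per the submitters' processing notes. For versions, annotation release, strand setting and multi-mapped reads nothing is stated (not given in the sources used here). Of 55359 IDs per table, a symbol was matched for 52083, and IDs without one stayed in the library totals. Gene names, classes, spans and hosts came from GENCODE M21 and the promoter sequences from RefSeq, both on GRCm38, so no coordinates of the count files are printed.

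Counts were fitted with edgeR 4.0.16 (limma 3.58.1, R 4.3.3): TMM scaling, filterByExpr (minimum count 10, minimum total 15), 8 group means over all 16 libraries, so that all groups share the spread, and 2-sided quasi-likelihood tests with Benjamini-Hochberg adjustment over 21543 genes at 0.05. The value over both sexes is the mean of the male and the female difference. CPM are TMM-scaled, log2 fold changes are dual minus paternal and carry the fit's SE, and effects by sex and by father are contrasts of the same fit.

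Alternatives were DESeq2 1.42.0, other scalings and filters, protein-coding genes alone, the 8 libraries alone, the TEC and sense-intronic share as a covariate, a replicate block, and leaving out each library.

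Genes were named by rule: for each direction over both sexes, the 15 with the largest log2 fold change past the threshold whose male and female values shared a sign, at a mean log2 CPM of 1 or more, with a class other than TEC and sense-intronic and no predicted-gene name, then up to 5 of smallest p per direction in the other contrasts and up to 5 per gene list. Further members of a list are named where its count is given. The comparison, the lists and the rule were chosen with earlier results of these data known. A few genes that the rule names are not reported here.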

Additional observations from a re-analysis of the deposited data

Results flagged for a closer look

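For 907 genes dual minus paternal differed from maternal minus control in edgeR. That number was 0 with the TEC and sense-intronic share as a covariate and 5 with protein-coding genes tested alone. What underlies the difference was not tested. Of the 30 genes with the largest changes over both sexes, 16 were among the 907, 9 higher and 7 lower. Their adjusted p-values ran from 0.00111 to 0.0427. The higher ones were Lrtm1 (2.16 on the log2 scale), Nrg3os (1.83), Adam4 (1.44), Dnm3os (1.43), Arntl2 (1.37), Plxna4os2 (1.29), Slain1os (1.26), Sycp2 (1.19) and Kcnq1ot1 (1.07). The lower ones were Mrc1 (-1.66), Slc38a4 (-1.55), Hbb-bs (-1.36), Lgals1 (-1.196), Cyba (-1.09), Adgre1 (-1.08) and Stab1 (-1.03). No library stood out of its exposure group by Dixon's criterion in the 58 groups of 4 libraries examined. These were the dual and paternal groups of the 30 genes other than Xist. Each group pooled 2 male and 2 female libraries. A gap between the sexes widens the range, so a library that stands out within its sex could be missed. The genes were chosen for passing between those groups, which favours a small spread within them, so the usual rate of about 1 in 20 does not apply. Maternal and control groups were not examined in this way.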

How the results depend on the processing

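Without a filter on low counts 160 genes passed in males, 193 for the difference between the sexes and 1808 for the difference by father. DESeq2 called 12 genes in males and 71 for the sex difference, where DESeq2 size factors gave 2, total counts without TMM 2 and the 8 libraries alone 34. With protein-coding genes alone 208 passed over both sexes, 149 in females and 5 by father. Leaving out 1 library gave 764 to 2874 calls over both sexes, 627 to 3230 in females, 0 to 3 in males, 0 to 18 for the sex difference and 368 to 2169 by father. Coding rises numbered 68 to 378 and coding falls 81 to 1093 under those omissions, and TEC and sense-intronic rises 429 to 890. Of 116 called genes followed, 53 passed in each omission, and 0 changed sign there. In males 0 genes passed without the 2 female dual libraries, a fit chosen after seeing the data. The replicate numbers did not pair the libraries (correlations of deviations from -0.19 to 0.11 over 12268 genes), and the replicate block gave 1850 calls over both sexes, 0 in males, 2073 in females, 0 for the sex difference and 933 by father.

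With the TEC and sense-intronic share as a covariate 0 genes passed over both sexes, in females or by father (733, 738 and 697 at an unadjusted p under 0.05), and signs reversed. This share is highest in the female dual libraries, so covariate and exposure cannot be told apart, and the cause was not tested. Over both sexes the rises reversed to -1.25 (Sorbs2os), -1.26 (C79798), -0.35 (Dnm3os), -0.33 (Arntl2), -0.022 (Sycp2), -0.83 (Slc6a20b), -0.13 (Snhg14), -0.38 (Malat1), -0.13 (Rian), -0.45 (Meg3), -0.25 (Pcdhga9), -0.069 (Cacna1d), -0.23 (Kcnh7), -0.041 (Cacna1e), -0.17 (Gria2), -0.15 (Grm8), -0.056 (Nrxn3), -0.0012 (Csmd1), -0.21 (Ptprd), -0.13 (Nktr), -0.18 (Pnisr), -0.035 (Kmt2c), -0.015 (Zbtb20), -0.17 (Adarb2), -0.028 (Sgce) and -0.15 (Slc16a4). The falls reversed to 0.63 (Npr1), 0.12 (Igfbp2), 0.11 (Igfbp3), 0.14 (Rps14), 0.067 (Rps7), 0.10 (Rpl37), 0.19 (Rpl34), 0.022 (Atp5b), 0.043 (Psmb4), 0.20 (Eif6), 0.13 (Akr1a1), 0.22 (Hist1h4h) and 0.10 (Cct5). In females Kcnq1ot1 was at -0.13, D10Wsu102e at -0.25, Plxna4os2 at -0.062, Rpl34 at 0.29, Rps14 at 0.37 and Rps7 at 0.19, and the sex difference of Kcnq1ot1 was 0.34. By father Plxna4os2 was at -0.093, Dnm3os at -0.27, Arntl2 at -0.28, Sycp2 at -0.037, Kcnq1ot1 at -0.013, Igfbp2 at 0.039 and Meg3 at -0.19. Every male library is shallower than every female library, and the median SE of a gene's log2 fold change was 0.234 in males and 0.213 in females, with 2 libraries per exposure in each sex.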
